A study of Mus musculus with 2 samples.

Results

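Ccl5-positive CD8 T cells with little or no transcript of the inhibitory receptors Pdcd1, Lag3 and Havcr2 are described here among immune cells that infiltrate the pancreas of diabetes-prone mice. They were chosen by counts of unique molecular identifiers (UMIs, 1 per captured transcript) in each cell barcode. A member held at least 1 UMI of Cd3d, Cd3e and Cd3g together, at least 2 of Cd8a and Cd8b1 together, none of Cd4 and at most 1 of Cd79a. It also held at least 2 UMIs of Ccl5, fewer than 2 of the 3 receptors together and fewer than 4 of 7 cell-cycle genes. The rule found 119 members among 3913 barcodes, 75 of 2804 in the library of 12-week-old mice and 44 of 1109 in that of 7-week-old mice. The mice were female NOD/ShiLtJ, an inbred strain with spontaneous autoimmune diabetes, and CD45.1+ pancreatic cells of both ages were isolated on a flow cytometer and loaded on the 10x Chromium 3' system. The labels name no treatment and no genetic change beyond the strain. Each age had 1 library, and how many mice contributed to it is not stated in the labels.

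Ccl5 encodes an inflammatory chemokine, and CD8 T cells transcribe it once they have responded to antigen or to homeostatic cytokines, whereas naive cells hold little of it. Pdcd1 (PD-1), Lag3 and Havcr2 (TIM-3) restrain T cells and are kept high by persistent antigen. Resting memory cells return to low levels of these receptors and carry Il7r, the receptor for the survival cytokine IL-7. In NOD mice, CD8 T cells that recognise beta cell antigens enter the islets and kill beta cells.

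With 1 library per age, no difference has a replicate check and no test was run. Summed UMIs are given as CPM, that is per 1000000 UMIs summed over the cells of a group, and ratios of CPM carry exact 95% intervals in parentheses that cover counting error only. Age and library cannot be told apart. A gene was called higher or lower past 1.5-fold among genes with at least 30 UMIs over both sides; in comparisons made inside the libraries this had to hold in each of them, in the same direction. Because Ccl5, the CD3 and CD8 genes, the 3 receptors and the cell-cycle genes chose the members, their levels are descriptions.

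Members were compared with 2 other kinds of CD8 T cell under the same limits on CD3, CD8, Cd4, Cd79a and cell-cycle genes. Receptor-holding cells, with at least 2 UMIs of Ccl5 and at least 2 of the 3 receptors together, numbered 145 at 12 weeks and 50 at 7 weeks. Cells without any Ccl5 UMI numbered 131 at 12 weeks and 37 at 7 weeks, and no limit on the 3 receptors was set for them. Of these, 112 at 12 weeks and 25 at 7 weeks held no receptor UMI, and 3 at 12 weeks and 1 at 7 weeks held 1. The rest held 2 or more, so this group is mixed, and unevenly so between the libraries. The median depth of members was 4978 UMIs at 12 weeks and 5969.5 UMIs at 7 weeks. It was 6047 UMIs at 12 weeks and 6124.5 UMIs at 7 weeks in receptor-holding cells, and 4822 UMIs at 12 weeks and 4765 UMIs at 7 weeks in cells without Ccl5. The libraries shared 2 barcodes, and 0 of them were members.

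The markers of the label were present. Cd8a held 608 CPM in 12-week members and 667 CPM in 7-week members, with a UMI in 69 of 75 cells at 12 weeks and 43 of 44 at 7 weeks. Nkg7, which encodes a cytotoxic granule protein and which the rule did not use, had a UMI in 75 of 75 members at 12 weeks and 42 of 44 at 7 weeks, against 84 of 492 B cells at 12 weeks and 13 of 115 at 7 weeks, whose median depths were 4606.5 UMIs at 12 weeks and 4968 UMIs at 7 weeks. Nkg7 was also detected in 118 of 131 CD8 T cells without Ccl5 at 12 weeks and 35 of 37 at 7 weeks, so detection of it does not single the members out. Cd8b1 had no UMI in 7 of the 75 and 6 of the 44 members.

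Transcripts that mark other cells were present too. The 16 acinar markers summed to 134 UMIs in 12-week members and 2 UMIs in 7-week members, with 14 of them detected at 12 weeks and 2 at 7 weeks. The 9 endocrine markers summed to 60 UMIs at 12 weeks and 5 UMIs at 7 weeks. In 12-week members B cell markers summed to 20 UMIs, macrophage markers to 5 and NK cell markers to 74, in 7-week members B cell markers to 12, macrophage markers to 7 and NK cell markers to 77, while in both stromal and mast cell or basophil markers were at 0. The NK cell markers overlap the list of memory T cell genes used here, so their sums need not come from other cells. Of the MHC class II transcripts Cd74, H2-Aa and H2-Ab1, 2 members at 12 weeks held 88 and 62 of 276 UMIs, and 2 members at 7 weeks held 646 and 119 of 856 UMIs. The next highest member held 6 UMIs at 12 weeks and 7 UMIs at 7 weeks. Barcodes with 2 or more UMIs of another cell's markers were 41 of 75 members (54.7%) at 12 weeks and 11 of 44 (25%) at 7 weeks, a ratio of 2.19 (1.104 to 4.72). Without such barcodes, 34 of 75 members, 66 of 145 receptor-holding cells and 72 of 131 cells without Ccl5 were left at 12 weeks. At 7 weeks 33 of 44 members, 23 of 50 receptor-holding cells and 23 of 37 cells without Ccl5 were left, so the groups there were unevenly affected. A barcode was counted when a single marker gene had 2 or more UMIs, and the NK and plasma cell markers, among others, were not used. The part of other cells' transcripts in the results below was not tested except where a value without such barcodes is given.

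Ccl5, on chromosome 11 (83525778 to 83530518, minus strand, mm10), ranged from 2 to 295 UMIs per member with a median of 35 at 12 weeks, and from 2 to 404 UMIs with a median of 29 at 7 weeks. Receptor-holding cells had medians of 75 UMIs at 12 weeks and 79.5 UMIs at 7 weeks. Members spread widely below and above these medians, and 24 of the 75 at 12 weeks and 17 of the 44 at 7 weeks held only 2 to 9 UMIs. B cells of the same libraries held up to 4 UMIs of Ccl5 at 12 weeks and up to 5 at 7 weeks. Of them, 6.30% (4.32 to 8.83) at 12 weeks and 13.04% (7.49 to 20.6) at 7 weeks held 2 or more, so the lowest counts that the rule admits overlap those of B cells.

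**Figure D1:**
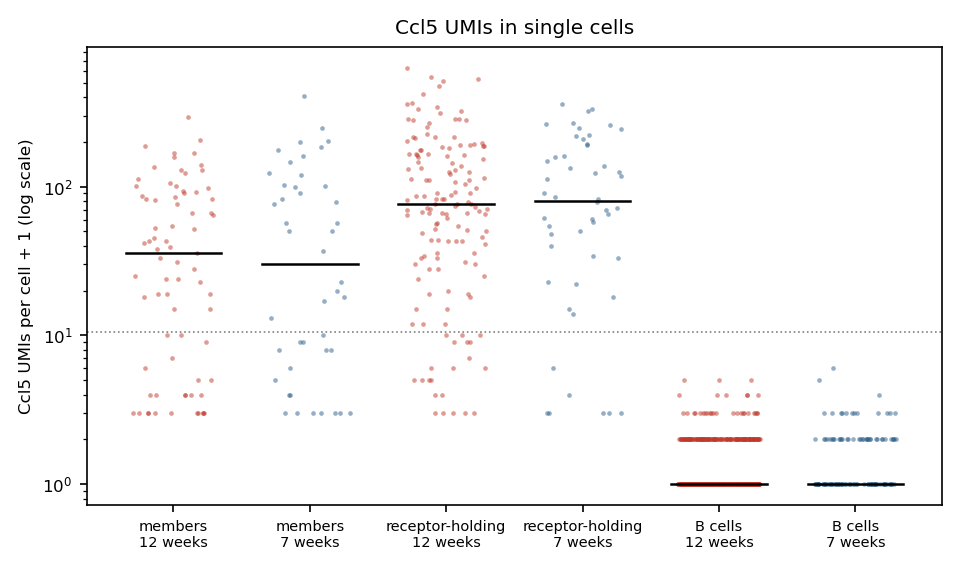
Ccl5 UMIs per cell plus 1, on a log scale, for members, receptor-holding CD8 T cells and B cells of each library; each point is 1 cell, the black bar is the median and the dotted line parts 10 or more UMIs from fewer. Members reach 295 UMIs at 12 weeks and 404 at 7 weeks, and 24 members at 12 weeks and 17 at 7 weeks lie below the line, where all B cells lie.

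Around the Ccl5 limit, Lef1, a transcription factor of naive and early memory T cells, held 595 CPM in the 11 members with 2 Ccl5 UMIs and 527 CPM in the 50 cells just outside with 1 UMI at 12 weeks. At 7 weeks it held 278.5 CPM in 7 such members and 499.7 CPM in 14 such cells. Gzmk, the gene of granzyme K, a serine protease, had 3 UMIs at 12 weeks and 0 UMIs at 7 weeks just inside and 0 UMIs just outside in both libraries. Around the receptor limit, Il7r held 163.5 CPM in the 21 members with 1 receptor UMI and 79.0 CPM in the 16 cells just outside with 2 UMIs at 12 weeks. At 7 weeks it held 149.8 CPM in 10 members and 118 CPM in 5 cells. The limits cut through continuous ranges of counts, and the groups beside them are small.

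Members made up 16.1% (12.9 to 19.8) of the 465 CD8 T cells at 12 weeks and 25.7% (19.4 to 33.0) of the 171 at 7 weeks, giving a ratio of 0.627 (0.426 to 0.931). Of all cells they were 2.67% (2.11 to 3.34) at 12 weeks and 3.97% (2.90 to 5.29) at 7 weeks, and the interval of that ratio of 0.674, 0.459 to 1.002, reached past 1. Receptor-holding cells were 31.2% (27.0 to 35.6) of CD8 T cells at 12 weeks and 29.2% (22.6 to 36.7) at 7 weeks, and the interval of their ratio was 0.768 to 1.502. With at least 10 Ccl5 UMIs required, members were 10.97% of CD8 T cells at 12 weeks and 15.8% at 7 weeks, and the ratio of 0.695 had an interval of 0.428 to 1.15. With 1 Ccl5 UMI enough, the ratio was 0.793 (0.576 to 1.102), and with at least 3 UMIs 0.636 (0.418 to 0.981). The share of members was thus lower at 12 weeks beyond counting error at limits of 2 and 3 Ccl5 UMIs, but not at 1 or at 10.

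Against receptor-holding cells, members held more transcripts of naive and memory T cells and fewer of chemokines and of genes of persistent stimulation. Some immediate-early, stress and interferon-gamma response genes were higher in members as well. Over all genes, 44 were higher in members (1.76% of 2505 genes) and 238 were lower (9.5%). The median gene stood at a log2 ratio of -0.20 at 12 weeks and -0.23 at 7 weeks, and the lower values are to be read against this shift. With median-of-ratios scaling the split was 127 higher and 115 lower.

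Of 15 measured naive and memory genes, 8 were higher and 0 lower, with median log2 ratios of 0.95 at 12 weeks and 1.01 at 7 weeks. Il7r, on chromosome 15 (9505788 to 9530176, minus strand), held 269 CPM in members and 59.7 CPM in receptor-holding cells at 12 weeks, and 197 CPM in members and 59.6 CPM in receptor-holding cells at 7 weeks. The ratios were 4.51 (3.27 to 6.25) at 12 weeks and 3.31 (1.99 to 5.698) at 7 weeks. It had a UMI in 45 of 75 members at 12 weeks and 26 of 44 at 7 weeks, in 21 of 145 receptor-holding cells at 12 weeks and 8 of 50 at 7 weeks and in 3 of 492 B cells at 12 weeks and 4 of 115 at 7 weeks. Lef1 held 266 CPM in members and 43.6 CPM in receptor-holding cells at 12 weeks, and 150.5 CPM in members and 16.2 CPM in receptor-holding cells at 7 weeks, with ratios of 6.11 (4.29 to 8.84) at 12 weeks and 9.26 (3.92 to 26.7) at 7 weeks.

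Genes of lymph node homing and of exit from tissue were among the 8. Ccr7, the receptor for lymph node chemokines, gave ratios of 6.56 (3.78 to 11.8) at 12 weeks and 4.103 (1.96 to 9.38) at 7 weeks. At 7 weeks members with 10 or more Ccl5 UMIs held 20 Ccr7 UMIs in 6 cells, and members with 2 to 9 held 11 in 7 cells. In a subset of 5 members with 20 Ccr7 UMIs together, 1 cell held 70% of those 20, so the ratio there leans on that cell. Klf2, a factor that drives S1pr1, gave 4.24 (2.51 to 7.3) at 12 weeks and 5.15 (2.42 to 12.2) at 7 weeks. S1pr1, the receptor that guides lymphocytes out of tissue, gave 2.56 (1.49 to 4.42) at 12 weeks and 3.97 (1.89 to 9.104) at 7 weeks. Tcf7 (TCF-1), needed by memory and stem-like T cells, differed by less, at 1.52 (1.15 to 2.02) at 12 weeks and 1.75 (1.12 to 2.76) at 7 weeks. Bcl2, which blocks apoptosis, gave 1.94 (1.41 to 2.65) at 12 weeks and 1.81 (1.102 to 3) at 7 weeks. Kbtbd11, Fam101b, Socs3, Nsg2 and Arl4c, the other higher genes named by rank, had ratios of 2.71 to 4.69, and of these Socs3 is a cytokine-induced inhibitor of JAK-STAT signalling.

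Of 5 measured cytokine and chemokine genes, 3 were lower and 0 higher. Ccl4, which encodes another inflammatory chemokine, held 304 CPM in members and 2058 CPM in receptor-holding cells at 12 weeks, and 118 CPM in members and 1693 CPM in receptor-holding cells at 7 weeks. Its ratios were 0.148 (0.122 to 0.177) at 12 weeks and 0.0699 (0.0477 to 0.0992) at 7 weeks, and it had a UMI in 26 of 75 members at 12 weeks and 16 of 44 at 7 weeks. Ccl3 gave 0.166 (0.105 to 0.2504) at 12 weeks and 0.198 (0.1204 to 0.311) at 7 weeks, and Xcl1, which attracts cross-presenting dendritic cells, 0.199 (0.159 to 0.246) at 12 weeks and 0.2603 (0.194 to 0.344) at 7 weeks. Members thus carried Ccl5 with less Ccl3, Ccl4 and Xcl1 than receptor-holding cells. Ifng, encoding interferon-gamma, gave 0.539 (0.391 to 0.731) at 12 weeks and 0.777 (0.571 to 1.05) at 7 weeks and was not called.

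Genes of exhaustion that the rule did not use were lower as well, 6 of 8 measured and 0 higher. Tox, a nuclear factor that establishes the exhausted state, had a UMI in 12 of 75 members at 12 weeks and 8 of 44 at 7 weeks, against 106 of 145 receptor-holding cells at 12 weeks and 35 of 50 at 7 weeks. Its ratios were 0.174 (0.103 to 0.276) at 12 weeks and 0.127 (0.0593 to 0.243) at 7 weeks. Ctla4, an inhibitory receptor, gave 0.295 (0.123 to 0.612) at 12 weeks and 0.213 (0.0648 to 0.554) at 7 weeks, Cd160 0.0825 (0.0328 to 0.173) at 12 weeks and 0.303 (0.142 to 0.592) at 7 weeks and Cd200 0.188 (0.0883 to 0.356) at 12 weeks and 0.179 (0.0549 to 0.456) at 7 weeks. Batf, an AP-1 factor induced by T cell receptor signalling, gave 0.402 (0.292 to 0.545) at 12 weeks and 0.274 (0.167 to 0.433) at 7 weeks. Also named by rank as lower were Rgs16, Stmn1, Lig1, Plek, Capg and Mcm6, with ratios of 0.0632 to 0.2504. Of these, Lig1 and Mcm6 belong to DNA replication. The limit on cell-cycle genes was the same on both sides, but it still admits cells with a few UMIs of cell-cycle genes. The part of such cells in these ratios was not tested.

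Granule genes differed one by one: of 9 measured, 2 were lower, 0 higher and 7 neither. Nkg7 held 1938 CPM in members and 3475 CPM in receptor-holding cells at 12 weeks, and 1631 CPM in members and 3266 CPM in receptor-holding cells at 7 weeks, with ratios of 0.558 (0.515 to 0.603) at 12 weeks and 0.499 (0.447 to 0.557) at 7 weeks. Gzmb, the gene of granzyme B, gave 0.119 (0.0504 to 0.239) at 12 weeks and 0.331 (0.204 to 0.517) at 7 weeks. Gzmk gave 0.884 (0.683 to 1.14) at 12 weeks and 0.6995 (0.457 to 1.06) at 7 weeks, both intervals including 1. Gzmm, the gene of granzyme M, was outside the measured set, with 26 UMIs in members and 13 in receptor-holding cells at 12 weeks, a ratio of 5.31 (2.63 to 11.2). At 7 weeks it had 12 UMIs against 0, at least 5.29-fold higher when the floor of 3 counts over the group is used. Prf1, encoding perforin, had 3 UMIs in members at 12 weeks and 0 at 7 weeks, too few to compare. Gzma, the gene of granzyme A, had 24 UMIs in 7-week members, and its ratio there of 5.29 became 0.329 without the cell with most UMIs in each group.

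Of 8 measured NK receptor genes, Klrc1, Klre1 and Cd160 were lower and 0 were higher. Klrc1, encoding the inhibitory receptor NKG2A, gave 0.391 (0.268 to 0.557) at 12 weeks and 0.452 (0.281 to 0.708) at 7 weeks. Klrk1, encoding the activating receptor NKG2D, gave 0.782 (0.583 to 1.04) at 12 weeks and 0.803 (0.509 to 1.25) at 7 weeks. Of 7 measured tissue residency genes, Cxcr6 and Cd160 were lower and 0 higher. Cxcr6, a chemokine receptor of tissue-dwelling T cells, held 184 CPM in members and 478 CPM in receptor-holding cells at 12 weeks, and 194 CPM in members and 582 CPM in receptor-holding cells at 7 weeks. Cd69, which keeps lymphocytes in tissue by removing S1pr1 from the surface, gave 1.78 (1.48 to 2.13) at 12 weeks and 1.43 (1.12 to 1.82) at 7 weeks. Of 21 measured immediate-early and stress genes, 3 were higher in members and 0 lower, with median log2 ratios of 0.671 at 12 weeks and 0.459 at 7 weeks. Of 8 measured interferon-gamma response genes, 3 were higher and 0 lower, with median log2 ratios of 0.526 at 12 weeks and 0.137 at 7 weeks.

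**Figure D2:**
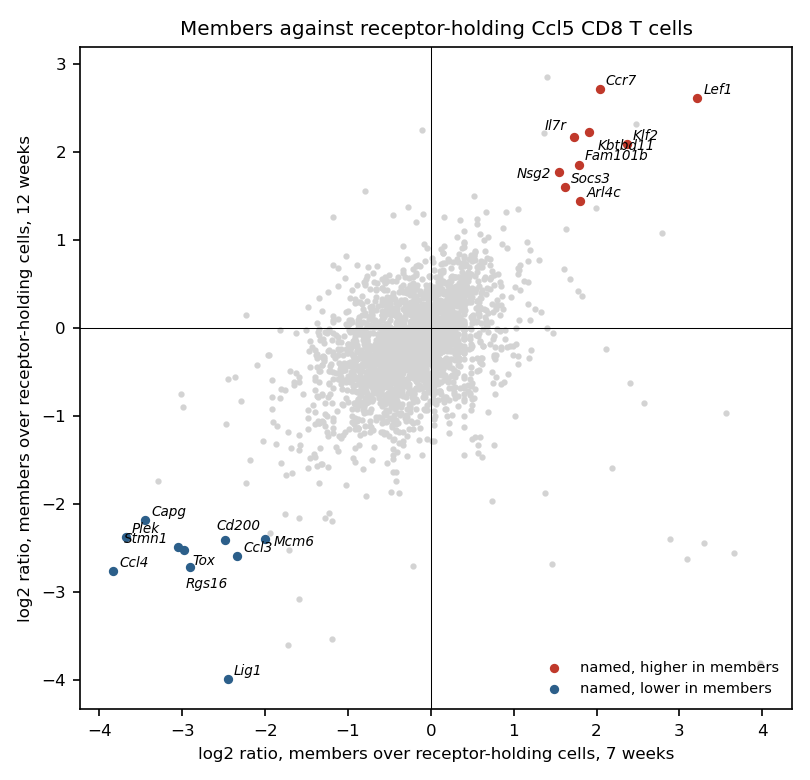
Log2 ratio of CPM, members over receptor-holding CD8 T cells, at 12 weeks (vertical) and 7 weeks (horizontal); each point is a gene with at least 30 UMIs over both sides in each library, and genes named by rank and reported here are coloured. Lef1, Klf2, Ccr7 and Il7r lie high in both libraries, and Ccl4, Tox and Ccl3 low in both.

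Cells rich in Ccl5 on both sides were compared as well. With at least 10 Ccl5 UMIs, 51 members stood against 124 receptor-holding cells at 12 weeks and 27 against 43 at 7 weeks, a comparison added after the counts had been seen, and 38 genes were higher (1.9% of 1996) and 173 lower (8.67%). With median-of-ratios scaling the split was 94 higher and 96 lower. Of 8 measured naive and memory genes, 2 were higher, Il7r and Tcf7, and 6 neither, against 8 of 15 among all members. Il7r gave 5.04 (3.52 to 7.28) at 12 weeks and 4.28 (2.43 to 7.86) at 7 weeks and Tcf7 1.66 (1.18 to 2.31) at 12 weeks and 2.12 (1.21 to 3.75) at 7 weeks. Lef1 was under the minimum of 30 UMIs at 7 weeks, with 20 UMIs in members and 6 in receptor-holding cells, and gave 3.69 (2.11 to 6.49) at 12 weeks and 5.71 (2.21 to 17.4) at 7 weeks. Of 4 measured exhaustion genes 2 were lower, Tox and Cd160, and of 5 cytokine and chemokine genes Ccl3, Ccl4 and Xcl1 were. Ccl4 gave 0.1496 (0.121 to 0.183) at 12 weeks and 0.0717 (0.0461 to 0.107) at 7 weeks and Tox 0.187 (0.103 to 0.314) at 12 weeks and 0.141 (0.0551 to 0.303) at 7 weeks. Hopx, a homeodomain protein of effector and memory T cells, gave 2.34 (1.68 to 3.23) at 12 weeks, while its interval at 7 weeks, 0.885 to 2.29, included 1.

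Against CD8 T cells without Ccl5, members held more effector and memory transcripts and fewer naive ones, with 49 genes higher (2.67% of 1837) and 22 lower (1.2%). Hopx had 68 UMIs in members and 4 in cells without Ccl5 at 12 weeks, and 36 against 1 at 7 weeks, with ratios of 28.7 (10.7 to 108) at 12 weeks and 27.4 (4.62 to 1113) at 7 weeks. S100a4, a calcium-binding protein of activated and memory T cells, had 85 against 9 UMIs at 12 weeks and 107 against 1 at 7 weeks. Both genes were close to absent from cells without Ccl5, so the upper ends of their intervals are wide.

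Gzmk held 214 CPM in members and 16.4 CPM in cells without Ccl5 at 12 weeks, and 133 CPM in members and 37.6 CPM in cells without Ccl5 at 7 weeks, with ratios of 13.1 (6.94 to 27.1) at 12 weeks and 3.52 (1.61 to 8.76) at 7 weeks. It had a UMI in 30 of 75 members at 12 weeks and 16 of 44 at 7 weeks and in 6 of 492 B cells at 12 weeks and 3 of 115 at 7 weeks. Of 6 measured granule genes, Gzmk, Nkg7, Ctsw and Ctla2a were higher and 0 were lower, and Ctla2a encodes a cathepsin inhibitor. Klrk1 gave 27.03 (10.1 to 102) at 12 weeks and 3.7 (1.61 to 9.89) at 7 weeks, S100a6, a relative of S100a4, 3.76 (2.91 to 4.88) at 12 weeks and 4.47 (3.04 to 6.78) at 7 weeks and Ccl4 5.24 (3.63 to 7.73) at 12 weeks and 5.03 (1.95 to 16.5) at 7 weeks. Acot7, Gem and Amica1 completed the higher genes named by rank, with ratios of 3.27 to 7.62.

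Of 5 measured chemokine and lipid receptor genes, Cxcr6 and Cxcr3 were higher than in cells without Ccl5, Ccr7 was lower and 2 were neither. Cxcr6 gave 2.94 (1.98 to 4.401) at 12 weeks and 2.94 (1.61 to 5.73) at 7 weeks, and Cxcr3, a receptor for interferon-induced chemokines of inflamed tissue, 3.42 (2.29 to 5.19) at 12 weeks and 1.85 (0.967 to 3.73) at 7 weeks. Rgs1, which dampens chemokine receptor signalling, gave 4.82 (3.64 to 6.45) at 12 weeks and 3.102 (2.202 to 4.46) at 7 weeks. Of 16 measured naive and memory genes 5 were lower and 1, Il7r, was higher. Ccr7 gave 0.4699 at 12 weeks and 0.549 at 7 weeks and Lef1 0.5003 at 12 weeks and 0.4999 at 7 weeks. Dapl1 and Igfbp4, transcripts of naive CD8 T cells, were lower too, Dapl1 at 0.262 at 12 weeks and 0.254 at 7 weeks and Igfbp4 at 0.168 at 12 weeks and 0.254 at 7 weeks. Il7r stood at 1.67 (1.27 to 2.21) at 12 weeks and 1.61 (0.994 to 2.68) at 7 weeks, although naive T cells carry it as well.

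Members were not uniform, and they differed with their Ccl5 level. Those with 10 or more Ccl5 UMIs, 51 at 12 weeks and 27 at 7 weeks, were set against those with 2 to 9, 24 at 12 weeks and 17 at 7 weeks, a division chosen after the counts had been seen. In it 52 genes were higher (5.41% of 961) and 14 lower (1.46%). Median depths were 4978 UMIs in members rich in Ccl5 and 5127 UMIs in the others at 12 weeks, and 7139 UMIs in members rich in Ccl5 and 5062 UMIs in the others at 7 weeks.

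Hopx had 68 UMIs in 26 of 51 members rich in Ccl5 and 0 UMIs in the 24 others at 12 weeks, at least 12.3-fold higher against the floor of 3 counts over the group. At 7 weeks it had 35 UMIs in 17 of 27 against 1 UMI in 17. Gzmk held 314 CPM against 28.5 CPM at 12 weeks and 189 CPM against 30.3 CPM at 7 weeks, with ratios of 11.02 (4.14 to 41.4) at 12 weeks and 6.23 (1.96 to 31.7) at 7 weeks. Ifng gave 6.39 (2.34 to 24.4) at 12 weeks and 3.79 (1.87 to 8.67) at 7 weeks, and Rgs1 5.32 (3.27 to 9.19) at 12 weeks and 3.37 (2.18 to 5.42) at 7 weeks. Of the Rgs1 UMIs in 7-week members rich in Ccl5, 34.0% lay in 1 cell. Most Hopx, Gzmk and Ifng UMIs of members thus lay in those rich in Ccl5.

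S100a6 gave 9.25 (5.05 to 18.9) at 12 weeks and 5.71 (3.41 to 10.2) at 7 weeks, and Itgb1, an integrin chain, 3.9 (2.12 to 7.84) at 12 weeks and 2.08 (1.14 to 4.06) at 7 weeks. Id2, a factor of effector differentiation, gave 2.54 (1.67 to 4.005) at 12 weeks and 1.59 (1.03 to 2.52) at 7 weeks. Gimap7, Hcst, Traf1 and Amica1 were also named by rank as higher, with ratios of 2.75 to 4.54, and Hcst encodes the signalling adaptor of NKG2D. Of the Traf1 UMIs in 7-week members rich in Ccl5, 61.7% lay in 1 cell, and without barcodes with 2 or more UMIs of another cell's markers its ratio at 7 weeks was 0.891. Il7r held 318 CPM in members rich in Ccl5 and 178 CPM in the others at 12 weeks, and 250 CPM in members rich in Ccl5 and 101 CPM in the others at 7 weeks. Within members Il7r was therefore on the side of Gzmk and Hopx.

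Lef1 was on the other side, with 116 CPM in members rich in Ccl5 and 542 CPM in the others at 12 weeks, and 111 CPM in members rich in Ccl5 and 222 CPM in the others at 7 weeks, ratios of 0.215 (0.136 to 0.332) at 12 weeks and 0.4999 (0.259 to 0.96) at 7 weeks. Dapl1 gave 0.181 (0.0888 to 0.347) at 12 weeks and 0.147 (0.0354 to 0.4603) at 7 weeks. In CD8 T cells without Ccl5, Lef1 held 533 CPM at 12 weeks and 301 CPM at 7 weeks. Tcf7 gave 1.22 (0.748 to 2.04) at 12 weeks and 0.947 (0.513 to 1.798) at 7 weeks. Igtp and Gbp2, interferon-gamma response genes, were lower in members rich in Ccl5, at 0.198 (0.0931 to 0.393) at 12 weeks and 0.285 (0.138 to 0.563) at 7 weeks for Igtp and 0.335 (0.168 to 0.648) at 12 weeks and 0.425 (0.212 to 0.838) at 7 weeks for Gbp2.

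Among the members rich in Ccl5, Il7r and Gzmk had UMIs in the same cell in 15 of 51 cells at 12 weeks and 8 of 27 at 7 weeks, and Il7r was found without Gzmk in 16 cells at 12 weeks and 10 at 7 weeks. The counts of each gene alone would give 16.4 shared cells at 12 weeks and 8.67 at 7 weeks. Il7r and Cxcr3 were together in 22 cells at 12 weeks and 9 at 7 weeks, where the single counts give 21.9 at 12 weeks and 9.33 at 7 weeks, and Il7r and Cxcr6 in 20 cells at 12 weeks and 12 at 7 weeks, where they give 15.2 at 12 weeks and 12 at 7 weeks. These transcripts thus lay in cells with and without an Il7r UMI, and no pair was tested. At this depth a transcript without a UMI is not shown to be absent.

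**Figure D3:**
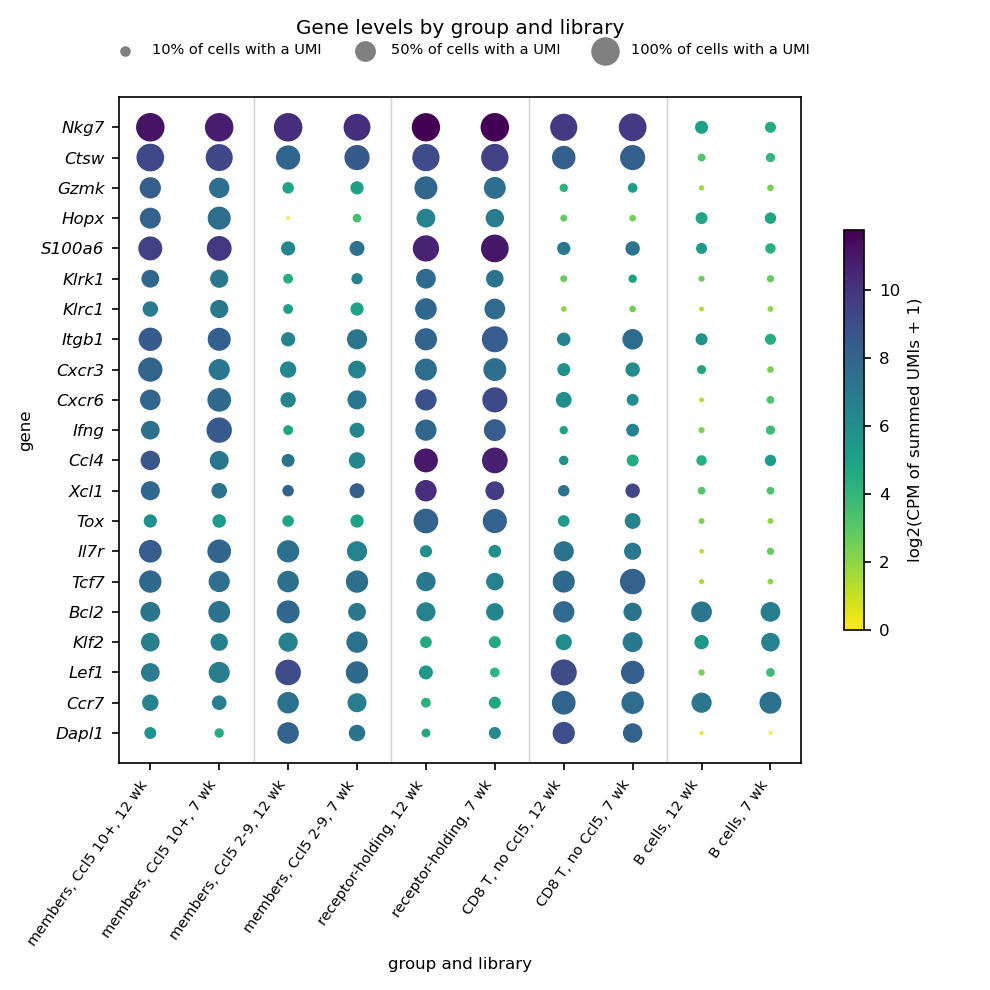
Level as log2(CPM + 1) of summed UMIs by colour, and share of cells with a UMI by dot area, in members with 10 or more and with 2 to 9 Ccl5 UMIs, receptor-holding cells, CD8 T cells without Ccl5 and B cells, with 12 weeks left of 7 weeks in each. Members rich in Ccl5 hold Gzmk, Hopx and Il7r; those with little Ccl5 hold more Lef1 and Dapl1.

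Between ages, 353 genes were higher in 12-week members (14.2% of 2485) and 233 lower (9.38%), with the median gene at a log2 ratio of 0.105. With median-of-ratios scaling the split was 256 higher and 293 lower. Gzmk held 214 CPM in 12-week members and 133 CPM in 7-week members, a ratio of 1.61 (1.08 to 2.44). Ccl4 held 304 CPM in 12-week members and 118 CPM in 7-week members, a ratio of 2.57 (1.74 to 3.902). Ctla2a gave 1.74 (1.35 to 2.25), Klrd1, encoding the CD94 partner of NKG2A, 1.61 (1.16 to 2.25), and Cxcr3 1.59 (1.05 to 2.45). Of 5 measured cytokine and chemokine genes, 1 was higher (Ccl4) and 1 lower (Ifng), of 7 chemokine and lipid receptor genes 3 were higher (Cxcr3, S1pr4 and Gpr183) and 0 lower, and of 7 NK receptor genes 2 were higher (Klrd1 and Klre1) and 1 lower (Fcer1g). Nkg7 gave 1.19 (1.06 to 1.34), under the 1.5-fold limit, and Il7r 1.36 (0.977 to 1.93).

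Other effector genes were lower in 12-week members. Ifng held 128 CPM in 12-week members, with a UMI in 22 of 75, and 254 CPM in 7-week members, with a UMI in 25 of 44, a ratio of 0.504 (0.344 to 0.732). S100a4 gave 0.557 (0.414 to 0.748) and Gzmb, with 8 UMIs in 12-week and 25 in 7-week members, 0.224 (0.0875 to 0.513). Of 10 measured granule genes, 3 were higher (Gzmk, Gzmm and Ctla2a), 3 lower (Gzma, Gzmb and Serpinb6b) and 4 neither. In 7-week members 1 cell held 95.8% of the Gzma UMIs and 1 cell 66.7% of those of Serpinb6b, so both of these calls rest on single cells. The 25 Gzmb UMIs of 7-week members lay in 5 cells, and 1 of these held 44%. Of 15 naive and memory genes, 3 were higher (Lef1, Dapl1 and Slamf6), 1 lower (Id3) and 11 neither.

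Of 20 immediate-early and stress genes, 5 were lower in 12-week members (Fosb, Jund, Ier5, Dusp1 and Hspa1b) and 0 higher, with a median log2 ratio of -0.22. Ier5 gave 0.358 (0.209 to 0.598), Dusp1, a MAP kinase phosphatase, 0.488 (0.355 to 0.667) and Hspa1b, a heat shock protein, 0.2697 (0.171 to 0.416). Tissue handling is known to induce such genes, and its part was not tested. In receptor-holding cells the age ratios of Ier5 and Hspa1b were 0.2397 and 0.204.

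Ranked by ratio, Pik3ip1, Phf20, Larp7, Idh3a, Xlr4b, Chp1, Smarcb1, Tagap, Gars and Gigyf2 were the most higher in 12-week members, at 3.16 to 4.91. Pik3ip1, which encodes an inhibitor of PI3 kinase, led them at 4.91 (1.92 to 16.1), from 35 UMIs in 12-week members and 5 in 7-week members. Chka, Hspa1b, Psme2b, Tomm6, Rftn1, Picalm, Dennd5b, Gstp1, Fam46a and AY036118 were the most lower, at 0.244 to 0.355. Reads of Psme2b are uncertain because of its near-copy Psme2.

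Among members with at least 10 Ccl5 UMIs, 263 genes were higher at 12 weeks (15.7% of 1679) and 157 lower (9.35%). With median-of-ratios scaling the split was 174 higher and 202 lower. Gzmk gave 1.67 (1.102 to 2.56), Ccl4 2.77 (1.77 to 4.48), Cxcr3 1.84 (1.15 to 3.05), Klrd1 1.79 (1.23 to 2.67) and Ifng 0.5297 (0.355 to 0.786), on the same side of 1 as over all members. Lef1, at 1.77 (1.23 to 2.59) over all members, was at 1.05 (0.576 to 1.95) in those rich in Ccl5.

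In receptor-holding cells the age ratio was 1.22 (1.11 to 1.33) for Ccl4, 2.38 (1.94 to 2.93) for Ctla2a, 1.27 (0.975 to 1.69) for Gzmk and 0.726 (0.582 to 0.909) for Ifng. These lay on the same side of 1 as in members, and the difference between both kinds of cell was not tested.

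**Figure D4:**
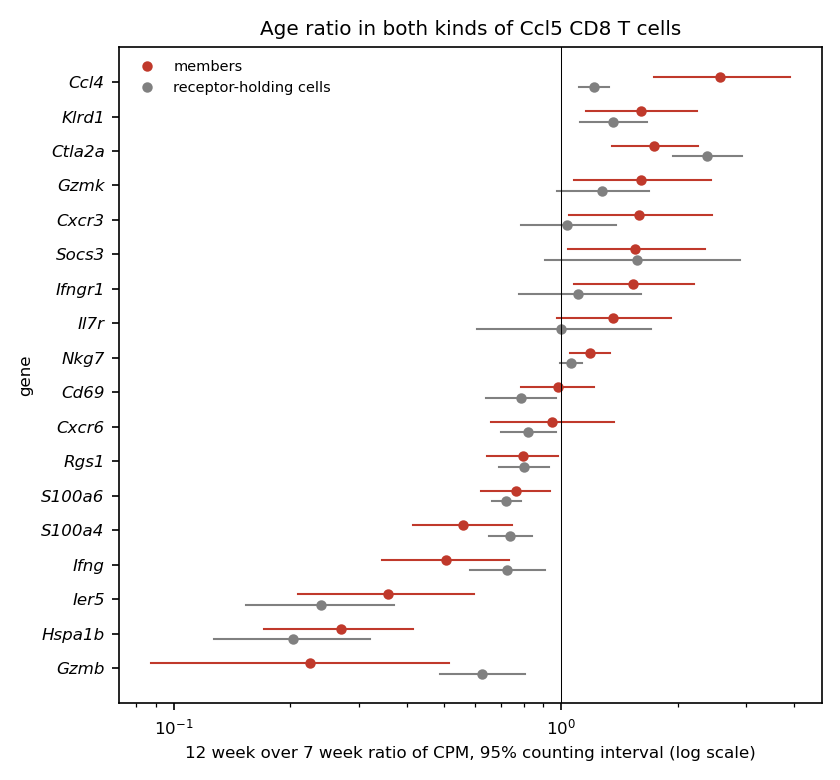
Ratio of CPM at 12 weeks over 7 weeks, on a log scale with 95% counting intervals, in members (red, upper of each pair) and receptor-holding cells (grey, lower). In members Ccl4, Klrd1, Ctla2a, Gzmk and Cxcr3 lie above 1 and S100a4, Ifng, Ier5, Hspa1b and Gzmb below it.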

How the data were processed

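For each library the authors' deposited matrix holds raw UMI counts per gene and barcode, made with Cell Ranger 1.3.1 on mm10 per the submitters' processing notes; settings of cell calling are not stated in the labels. Kept barcodes had 200 or more genes and 10% or less of their UMIs from mitochondrial genes. No doublet caller was run. Counts were summed per group and library, ratios of CPM were given exact conditional binomial 95% intervals and shares Clopper-Pearson intervals, and a sum of 0 was bounded with 3 counts over the group. The members, the 16 gene lists and the rules were chosen with earlier results of these data known. Genes were named by rank of ratio (up to 10 per direction with intervals excluding 1; in the age comparison, with at most 25% of UMIs from 1 cell) or as list members; mitochondrial, ribosomal, haemoglobin, predicted, acinar and endocrine genes were not ranked. A few genes of the lists and ranks, and 1 comparison within members, are not reported here. Alternatives were means over cells, thinning to 2000 UMIs, median-of-ratios scaling, minimums of 10 and 100 UMIs, and cells left out. The ratio code was tested on simulated data. Positions are from GENCODE by Ensembl identifier. Python 3.11.15, numpy 2.4.6, scipy 1.17.1, pandas 2.3.3 and matplotlib 3.10.9 were used.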

Additional observations from a re-analysis of the deposited data

Results flagged for a closer look

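For the 6 genes flagged here, the 12 week over 7 week ratio lay on opposite sides of 1 in members and in receptor-holding cells. They are not all the genes for which this held, and the difference was not tested. Cd74 was at 0.229 in members and 16.99 in receptor-holding cells, H2-Aa at 0.194 in members and 10.36 in receptor-holding cells, and H2-Ab1 at 0.267 in members and 10.43 in receptor-holding cells. Without the barcodes with 20 or more UMIs of these 3 class II genes, Cd74 was at 0.822 (0.494 to 1.38) in members and 0.811 (0.535 to 1.25) in receptor-holding cells, H2-Aa at 0.838 in members and 0.929 in receptor-holding cells, and H2-Ab1 at 1.15 in members and 1.097 in receptor-holding cells. Plac8 was at 0.536 in members and 12.32 in receptor-holding cells, and without those barcodes at 0.667 (0.429 to 1.04) in members and 2.06 (1.04 to 4.54) in receptor-holding cells. Fcer1g was at 0.104 in members and 1.83 in receptor-holding cells; without those barcodes it was at 0.0417 in members and 0.1495 in receptor-holding cells, and at 7 weeks 1 receptor-holding cell held all 13 UMIs. Dapl1 was at 1.92 in members and 0.376 in receptor-holding cells, and without those barcodes at 1.82 (1.06 to 3.27) in members and 0.403 (0.229 to 0.711) in receptor-holding cells.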

How the results depend on the processing

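No paired analysis was possible because each age had 1 library, and for the same reason no replicate could be left out. The share ratio of 0.627 stayed within its interval, between 0.460 and 0.793, under the 9 alternatives run. Counts of called genes, given here as higher then lower, moved with the minimum of UMIs. With at least 10 UMIs they were 1197 and 826 for age in members, 154 and 645 against receptor-holding cells, 226 and 150 against cells without Ccl5, 214 and 87 for Ccl5 level, 137 and 514 for receptor-holding cells at 10 or more Ccl5 UMIs on both sides, and 1044 and 663 for age in members at 10 or more. With at least 100 UMIs they were 34 and 51, 10 and 69, 8 and 5, 14 and 0, 11 and 45, and 24 and 45 in the same order. Thinned to 2000 UMIs, age gave 589 and 370, the receptor comparison 71 higher, cells without Ccl5 48 lower, Ccl5 level 83 and 34, and age at 10 or more 422 and 269. Median-of-ratios scaling gave 127 and 115 against receptor-holding cells, 94 and 96 at 10 or more, 174 and 202 for age at 10 or more, and 256 and 293 for age in all members. Without barcodes with UMIs of another cell's markers, which were 54.7% of members at 12 weeks and 25% at 7 weeks, 351 genes were lower for age, 44 against cells without Ccl5 and 236 for age at 10 or more. With no receptor UMI, 22 were lower for Ccl5 level.

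Of 2218 single-gene values under alternatives, 2006 stayed within the interval, 202 left it in the same direction and 10 reversed. Leaving out the cell with most UMIs in each group turned Gzma at 7 weeks to 0.329 against receptor-holding cells (0.430 at 10 or more) and Tyrobp by Ccl5 level to 1.09 at 12 weeks and 4.56 at 7 weeks; the same 2 Tyrobp values, 1.09 and 4.56, arose without class II rich barcodes. With no receptor UMI, Xcl1 by Ccl5 level at 7 weeks was 1.22. Without barcodes with another cell's markers, Inpp4b against cells without Ccl5 was 1.11 at 12 weeks, and Ccl5 level gave 0.891 for Traf1 at 7 weeks. Thinning gave 0.841 for Socs3 against cells without Ccl5 at 7 weeks. The cause was not tested. The few cells per group limit every ratio, and genes with few UMIs could not be compared at this depth.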
